A study of Mus musculus with 8 samples.

Results

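The cytokine genes described here are 10 genes of the interleukin-1, interleukin-6 and colony-stimulating groups: Il1a, Il1b, Il1rn, Il33, Il6, Lif, Csf1, Il34, Csf2 and Csf3. They were chosen by name, with earlier results of these data known, and were 10 of the 22026 genes that the deposited tables list. Of those genes, 15815 held any read. RNA was sequenced in bulk from 8 libraries of 4T1 and TS/A, breast cancer cell lines of BALB/c mice. Each line gave 2 libraries with a virus vector for Gpr56 (Adgrg1 in current naming, a receptor of the adhesion GPCR family whose known ligands include type III collagen) and 2 libraries with the empty vector. Cells grew in RPMI with 10% FCS, the series describes culture with type III collagen, and RNA was taken after 72 h. The promoter and clonality of the transduced cells are not stated. Libraries with the Gpr56 vector in their characteristics are titled Emp_ColIII and the others Emp_Control, so a vector effect and a collagen effect cannot be told apart from the labels, and the groups are named here by the characteristics.

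Interleukin-1 alpha and beta act through a shared receptor that activates NF-κB, and the receptor antagonist encoded by Il1rn blocks it. Interleukin-33 is a nuclear relative that acts on another receptor, ST2. Interleukin-6 and LIF signal through gp130, JAK kinases and STAT3. CSF-1 (M-CSF) and interleukin-34 share the receptor of macrophages, GM-CSF (Csf2) acts on several myeloid lineages, and G-CSF (Csf3) drives the output of neutrophils, which mice bearing 4T1 tumours are known to accumulate.

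The length-scaled levels set out which of these cytokines each line transcribed. In RPKM (reads scaled to transcript length and library size, as deposited, summed over a gene's transcripts), Il1a was the highest of the 10 in 4T1, at 141 ± 3.45 with the Gpr56 vector and 97.5 ± 4.19 with the empty vector (SD, n = 2 each here and for all means below). It stood at percentiles 96.4 and 94.6 of all genes with reads in those groups. Csf3 came next, at 97.6 ± 5.54 RPKM in 4T1 Gpr56 and 80.1 ± 1.64 RPKM in 4T1 empty. Csf1 followed at 45.3 ± 3.08 RPKM in 4T1 Gpr56 and 76.0 ± 2.01 RPKM in 4T1 empty, and Lif at 27.8 ± 1.05 and 25.1 ± 0.302 RPKM in the same groups. No libraries of neighbouring genes overlapped among these 4. Il34 and Csf2 were between 2.72 and 4.72 RPKM in the 4T1 libraries and overlapped each other in 4T1 Gpr56. Il6, Il1b, Il33 and Il1rn were each below 1 RPKM in every 4T1 library.

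TS/A had another order. Csf1 led at 79.8 ± 12.2 RPKM with the Gpr56 label and 79.7 ± 31.2 RPKM with the empty vector, ahead of Csf3 at 47.1 ± 6.86 RPKM in TS/A Gpr56 and 42.2 ± 3.76 RPKM in TS/A empty. Lif came next, at 24.1 ± 3.20 RPKM in TS/A Gpr56 and 22.5 ± 4.82 RPKM in TS/A empty. The libraries of these 3 genes did not overlap within a group. Il34 was the fourth, at 10.8 ± 1.94 RPKM in TS/A Gpr56 and 8.36 ± 0.295 RPKM in TS/A empty. Il33 and Csf2 overlapped each other in both TS/A groups, with Il33 at 2.48 ± 0.725 RPKM in TS/A Gpr56 and 2.73 ± 1.36 RPKM in TS/A empty, and Csf2 at 2.18 ± 0.296 RPKM in TS/A Gpr56 and 2.39 ± 0.491 RPKM in TS/A empty. Il1b and Il6 were below 1 RPKM in every TS/A library and overlapped in TS/A Gpr56, and Il1a was the ninth of the 10. In bulk RNA, a smaller share of cells with a transcript and less of it per cell cannot be told apart.

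**Figure D1:**
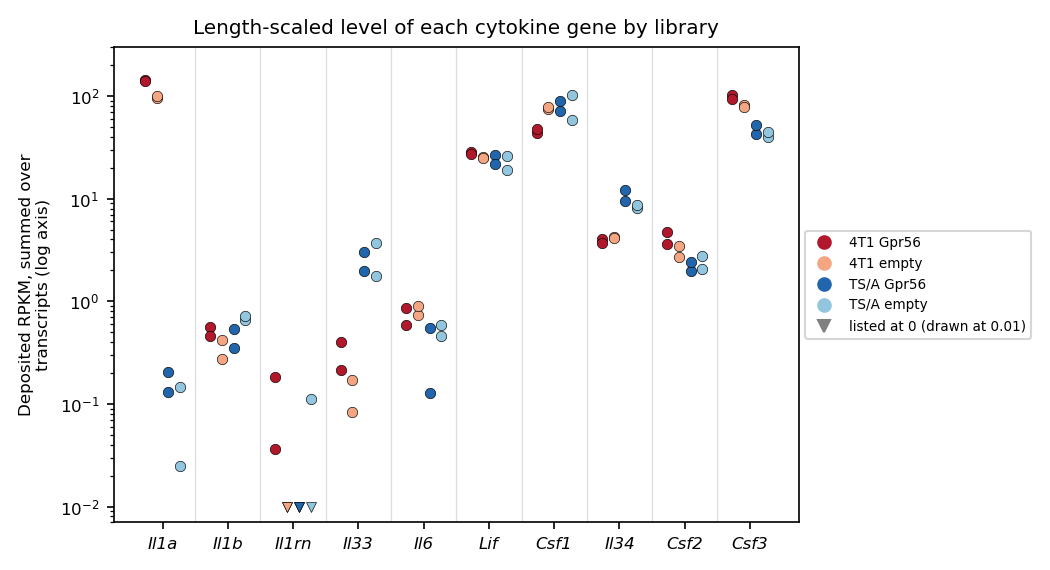
Deposited RPKM of each cytokine gene, summed over its transcripts, on a log axis, with 1 point per library and 4 colours for the groups. Il1a is the highest in all 4 libraries of 4T1 and lies below 0.3 RPKM in all 4 of TS/A, while Lif is between 19.1 and 28.5 RPKM throughout.

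The upstream sequences of Il1a, Csf1 and Il33 are shown because these genes carry the differences described next: Il1a and Il33 part the lines, Il1a and Csf1 part the 4T1 groups in opposite directions, and Il33 has 2 annotated starts. RefSeq start sites were found for 8 of the 10 genes, all but Csf3 and Il34. Each sequence is the 250 bases before the start in the reference genome (GRCm38.p6), on the coding strand, 5′ to 3′. Capitals mark TATAAA searched on the coding strand, and on both strands the AP-1 letters TGANTCA, the C/EBP letters TTGCNNAA and the consensus of NF-κB. Of 32851 RefSeq windows of this length, 7.59% held TATAAA, 6.75% the AP-1 letters, 9.56% the C/EBP letters and 7.25% the NF-κB consensus. A match describes letters and does not show a bound site.
Il1a, chr2:129309973-129310222, minus strand: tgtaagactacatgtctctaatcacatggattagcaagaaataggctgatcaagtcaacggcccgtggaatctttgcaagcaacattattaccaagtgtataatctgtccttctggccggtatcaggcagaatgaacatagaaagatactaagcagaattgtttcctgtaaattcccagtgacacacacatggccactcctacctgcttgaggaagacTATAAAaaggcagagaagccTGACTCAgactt
Csf1, chr3:107760470-107760719, minus strand: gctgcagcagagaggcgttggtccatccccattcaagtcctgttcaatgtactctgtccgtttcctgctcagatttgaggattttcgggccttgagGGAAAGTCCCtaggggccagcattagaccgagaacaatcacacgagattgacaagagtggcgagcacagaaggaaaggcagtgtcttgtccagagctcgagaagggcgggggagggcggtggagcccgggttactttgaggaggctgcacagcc
Il33 upstream start, chr19:29924863-29925112, plus strand: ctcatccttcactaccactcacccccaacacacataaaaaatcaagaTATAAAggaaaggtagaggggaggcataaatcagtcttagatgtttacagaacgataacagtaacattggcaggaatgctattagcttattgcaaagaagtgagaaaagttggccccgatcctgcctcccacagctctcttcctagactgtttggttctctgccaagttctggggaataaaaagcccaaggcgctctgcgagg
Il33 downstream start, chr19:29945540-29945789, plus strand: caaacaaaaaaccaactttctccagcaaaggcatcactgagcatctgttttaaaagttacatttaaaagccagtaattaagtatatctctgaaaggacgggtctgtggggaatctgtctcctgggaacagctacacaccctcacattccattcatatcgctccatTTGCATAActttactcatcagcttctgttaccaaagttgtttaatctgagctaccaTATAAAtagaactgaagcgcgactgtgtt
Il1a held TATAAA 32 bases and the AP-1 letters 12 bases before its start. Csf1 held an NF-κB match on the opposite strand 154 bases before its start and neither TATAAA nor the AP-1 letters. The upstream start of Il33 held TATAAA only at 203 bases before it, and the downstream start held TATAAA at 29 bases and the C/EBP letters at 85 bases before it. Of the genes not printed, Il6 held an NF-κB match at 44 bases and C/EBP and AP-1 letters farther out, and Lif NF-κB and AP-1 letters. Il1b held TATAAA at 31 bases, and Csf2 the C/EBP letters. Il1rn, with 3 annotated starts, held the AP-1 letters 141 bases before the first of them. The Csf2 window lies before a RefSeq start at 54249899 of chromosome 11. That start is upstream of the start of Csf2-201, the Csf2 transcript counted here, at 54249667. The bases just before Csf2-201 were therefore not searched. The Lif window lies before a RefSeq start at 4257568 of chromosome 11, close to the start of Lif-202 at 4257557. Lif-201, which took 41.06% to 59.48% of Lif reads, starts at 4267095, and the bases before it were not searched.

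Before the tests, 3 facts of the libraries bear on them. Depth was 10510569 to 25959142 reads per library, so 3 reads, the count that an observed 0 still allows, were 0.116 to 0.285 CPM (counts scaled to library size, counting error only). The TS/A empty libraries stood apart from each other: chi-square per degree of freedom between replicates was 5.53 in 4T1 Gpr56, 3.64 in 4T1 empty, 18.1 in TS/A Gpr56 and 123 in TS/A empty. Adgrg1, the gene that the vector carries, was at 90.5 and 100.1 CPM in 4T1 Gpr56, against 2.53 and 2.77 CPM in 4T1 empty (log2 fold change 5.16, SE 0.43, adjusted p = 0.00851). It was at 22.6 and 13.3 CPM in the TS/A libraries labelled with the Gpr56 vector, against 34.8 and 16.3 CPM in TS/A empty (-0.51, SE 0.35, adjusted p = 1), so in TS/A this transcript did not separate the labels. The reads do not tell the vector's transcript from the cell's own. Separate cultures are not stated for replicates, and each p-value is therefore measured against a spread that may be technical.

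In 4T1, the Gpr56 libraries held more Il1a and Csf3 and less Csf1 than the empty-vector libraries. These 3 changes passed edgeR's quasi-likelihood test (Benjamini-Hochberg adjusted p under 0.05) when the 4 libraries of 4T1 were fitted alone. None of the 9 testable cytokine genes passed in the fit of all 8 libraries, in which 0.226% of all genes did and in which 2 of the 9, Il1a and Csf1, had an unadjusted p under 0.05, as did 11.4% of all genes. DESeq2's Wald test called those 2 with all 8 libraries, beside 2.26% of all genes, and limma-voom called 0. In the fit of 4T1 alone 22.8% of all genes passed, 11.5% higher and 11.3% lower, beside 2 of the 9 higher and 1 lower. The coefficient of variation between replicates was 5.47% among the 4T1 libraries, 19.6% among those of TS/A and 14.7% over all 8. The median log2 fold change of the 9 genes in 4T1 alone was 0.26, against 0.00 for all genes. Below, CPM is scaled by the TMM method.

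Il1a encodes the interleukin-1 that is active as a precursor and is released from injured epithelial cells. It was at 299 and 286 CPM in the 4T1 Gpr56 libraries, against 199 and 214 CPM in the 4T1 empty libraries. Both Gpr56 libraries lay above both empty ones. The log2 fold change was 0.50 (SE 0.06, adjusted p = 2.25e-05) in 4T1 alone against 0.50 (SE 0.16, adjusted p = 0.281) with all 8 libraries. Leaving TS/A empty library 1 or 2 out of the fit of all 8 gave adjusted p-values of 0.00153 and 0.00158 for Il1a, in fits that called 10.5% and 10.3% of all genes. Il1a (ENSMUST00000028882, 7 exons, 270 codons) lies at chr2:129299610-129309972 of GRCm38, minus strand.

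The other members of the interleukin-1 group were close to the limit of detection in 4T1. Il1b, which encodes the form cleaved by caspase-1, had 17 and 7 reads (0.796 and 0.656 CPM) in 4T1 Gpr56, against 7 and 13 reads (0.394 and 0.611 CPM) in 4T1 empty, with a log2 fold change of 0.54 (SE 0.49, adjusted p = 0.777 with all 8 libraries). Il33, an alarmin kept in the nucleus, had 13 and 6 reads in 4T1 Gpr56, against 4 and 10 in 4T1 empty (0.72, SE 0.63, adjusted p = 0.762). The groups did not overlap for either gene, but at these counts a difference was not detectable. Il1rn had 3 and 1 reads in 4T1 Gpr56 and 0 in both 4T1 empty libraries, was too low to test, and is the 1 member of the 10 left out of every test.

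Csf1, the main growth factor of macrophages, was the member with the largest called difference in 4T1, and it was lower with the Gpr56 vector. It was at 166 and 171 CPM in 4T1 Gpr56, against 299 and 301 CPM in 4T1 empty. The groups lay far apart, and the libraries within each differed by less than 5 CPM. The log2 fold change was -0.83 in both fits, with SE 0.05 and adjusted p = 1.17e-07 in 4T1 alone, and SE 0.23 and adjusted p = 0.201 with all 8 libraries. Without TS/A empty library 1 or 2, the fit of the remaining 7 gave adjusted p-values of 0.000385 and 0.000387 for Csf1. Il34, which encodes the other ligand of the CSF-1 receptor, was at 7.26 and 6.66 CPM in 4T1 Gpr56 and 7.88 and 7.71 CPM in 4T1 empty, a log2 fold change of -0.15 (SE 0.17, adjusted p = 0.569 in 4T1 alone). Csf1 lies at chr3:107741048-107760469, minus strand, and Il34 at chr8:110741829-110805924, minus strand.

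Csf3 was at 151 and 138 CPM in 4T1 Gpr56, against 123 and 120.2 CPM in 4T1 empty, with both Gpr56 libraries higher. The log2 fold change was 0.26 (SE 0.06, adjusted p = 0.00693) in 4T1 alone and 0.25 (SE 0.15, adjusted p = 0.623) with all 8 libraries. Without 4T1 empty library 2, the fit of 4T1 alone gave Csf3 an adjusted p of 0.0721. Csf2 was at 3.04 and 3.94 CPM in 4T1 Gpr56, against 2.98 and 2.35 CPM in 4T1 empty (0.37, SE 0.29, adjusted p = 0.4 in 4T1 alone). Csf3 lies at chr11:98701263-98703629, plus strand, and Csf2 at chr11:54247271-54249667, minus strand.

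Of the gp130 ligands, Lif was abundant and Il6 was nearly undetected. Lif, which keeps mouse embryonic stem cells undifferentiated, was at 117.6 and 110.2 CPM in 4T1 Gpr56, against 106 and 104 CPM in 4T1 empty (log2 fold change 0.12, SE 0.06, adjusted p = 0.164 in 4T1 alone). Il6 had 16 and 8 reads in 4T1 Gpr56, against 15 and 19 reads in 4T1 empty (-0.21, SE 0.49, adjusted p = 0.802 in 4T1 alone). The libraries of the 4T1 groups did not overlap in any of the 9 tested genes, 6 higher and 3 lower, against 59.9% of all tested genes (29.5% higher and 30.4% lower). For Il1b, Il33 and Il6 that order rests on 4 to 19 reads per library, where a difference was not detectable. Lif lies at chr11:4257557-4272514, plus strand, and Il6 at chr5:30013114-30019981, plus strand.

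**Figure D2:**
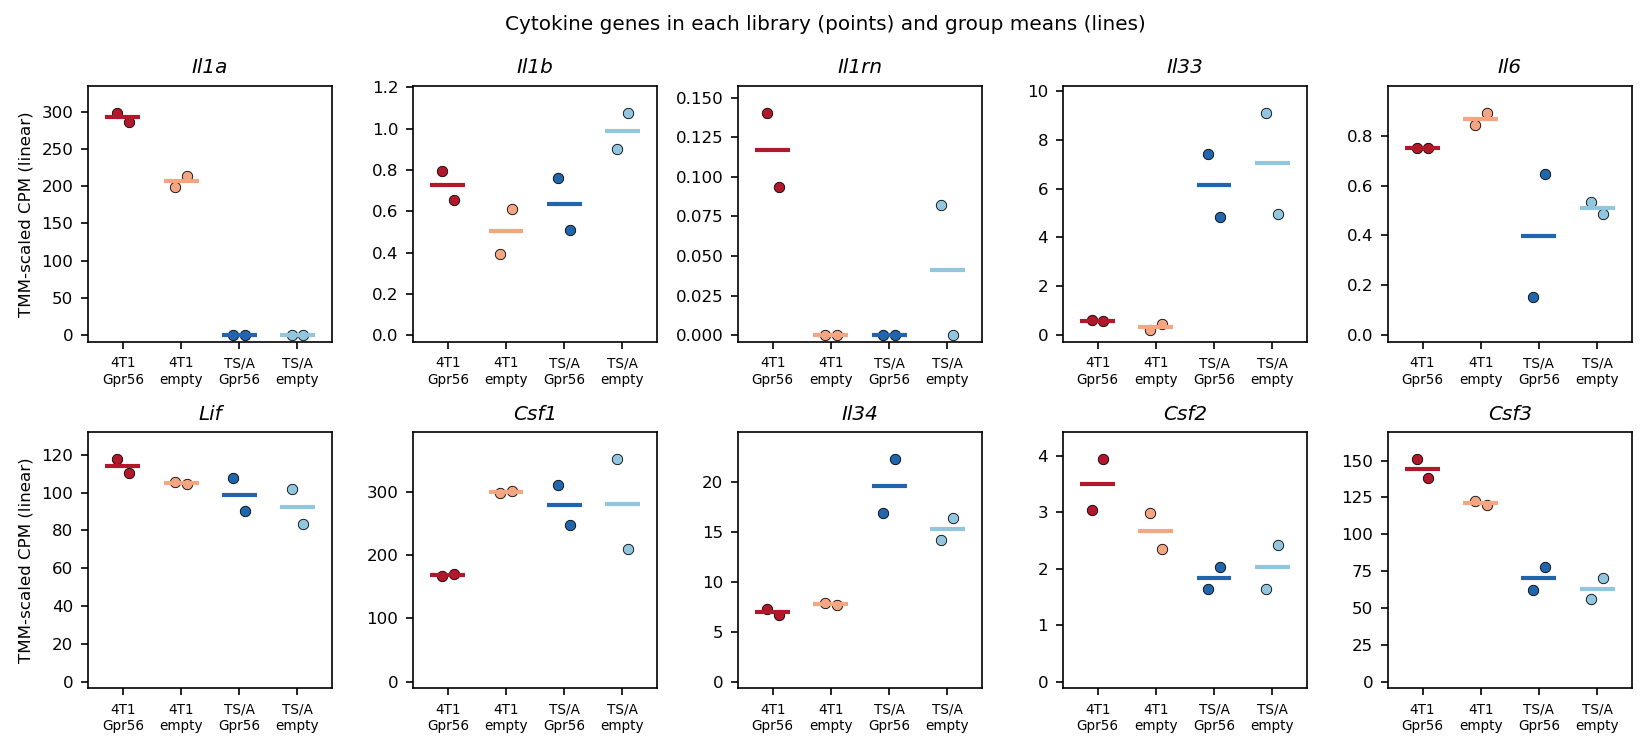
TMM-scaled CPM of each cytokine gene on linear axes of differing height, with 1 point per library and a line at each group mean. The 4T1 Gpr56 points for Csf1 lie at 166 and 171 CPM, below the 4T1 empty points at 299 and 301 CPM, and the TS/A empty points for Csf1 lie at 352 and 209.6 CPM.

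In TS/A, no cytokine gene passed the test between the vector labels. All 9 had an adjusted p of 1 with all 8 libraries, none had an unadjusted p under 0.05 (3.48% of all genes had), DESeq2 and limma-voom called 0 of them, and 0.00835% of all genes were called. With TS/A fitted alone 0 of 11276 genes were called and 115 had an unadjusted p under 0.05. Csf1 was at 311 and 248 CPM in the libraries labelled Gpr56, against 352 and 209.6 CPM in TS/A empty, so the empty libraries enclosed the others (log2 fold change -0.01, SE 0.22). This value was 0.42 when TS/A empty library 1 was left out and -0.33 when library 2 was. Il34 was at 16.9 and 22.3 CPM in TS/A Gpr56, against 14.1 and 16.4 CPM in TS/A empty (0.36, SE 0.18), and Il1b was at 0.762 and 0.508 CPM in TS/A Gpr56, against 0.902 and 1.08 CPM in TS/A empty (-0.62, SE 0.44). Those were the 2 of the 9 genes whose groups did not overlap, Il34 higher and Il1b lower, against 21.6% of all tested genes (11.2% higher and 10.4% lower).

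The remaining TS/A groups overlapped or were close to the limit of detection. Csf3 was at 62.1 and 78.0 CPM in TS/A Gpr56 and at 56.0 and 70.1 CPM in TS/A empty (0.15, SE 0.16). Lif was at 107 and 90.3 CPM in TS/A Gpr56 and at 102 and 83.1 CPM in TS/A empty (0.10, SE 0.14). Il33 was at 7.43 and 4.85 CPM in TS/A Gpr56 and at 9.10 and 4.95 CPM in TS/A empty (-0.20, SE 0.36), a difference smaller than that between the libraries of either group. Csf2 was at 1.64 and 2.03 CPM in TS/A Gpr56 and at 1.64 and 2.42 CPM in TS/A empty (-0.14, SE 0.33). Il6 had 4 and 14 reads in TS/A Gpr56, against 13 and 9 reads in TS/A empty, Il1a had 11 and 6 reads in TS/A Gpr56, against 7 and 1 in TS/A empty, and Il1rn had 0 reads in both TS/A Gpr56 libraries, against 2 and 0 in TS/A empty.

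The difference between the vector effects of the lines was tested as an interaction, TS/A minus 4T1. It called 0 of the 9 cytokine genes by edgeR, against 0.0668% of all genes, and 1 of the 9, Csf1, had an unadjusted p under 0.05, as did 6.4% of all genes. DESeq2 and limma-voom called 0 as well. For Csf1 the interaction was 0.83 on the log2 scale (SE 0.32, unadjusted p = 0.0303, adjusted p = 0.718). Leaving out TS/A empty library 1 gave 1.25 (adjusted p = 0.00219) and leaving out library 2 gave 0.51 (adjusted p = 0.0315), each resting on a lone empty library assumed to vary like the others. Those fits called 2.54% and 19.5% of all genes, so Csf1 passed along with many others. Interactions for Il1a (0.41, SE 0.56) and Csf3 (-0.10, SE 0.22) had adjusted p-values of 0.958 and 0.986.

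**Figure D3:**
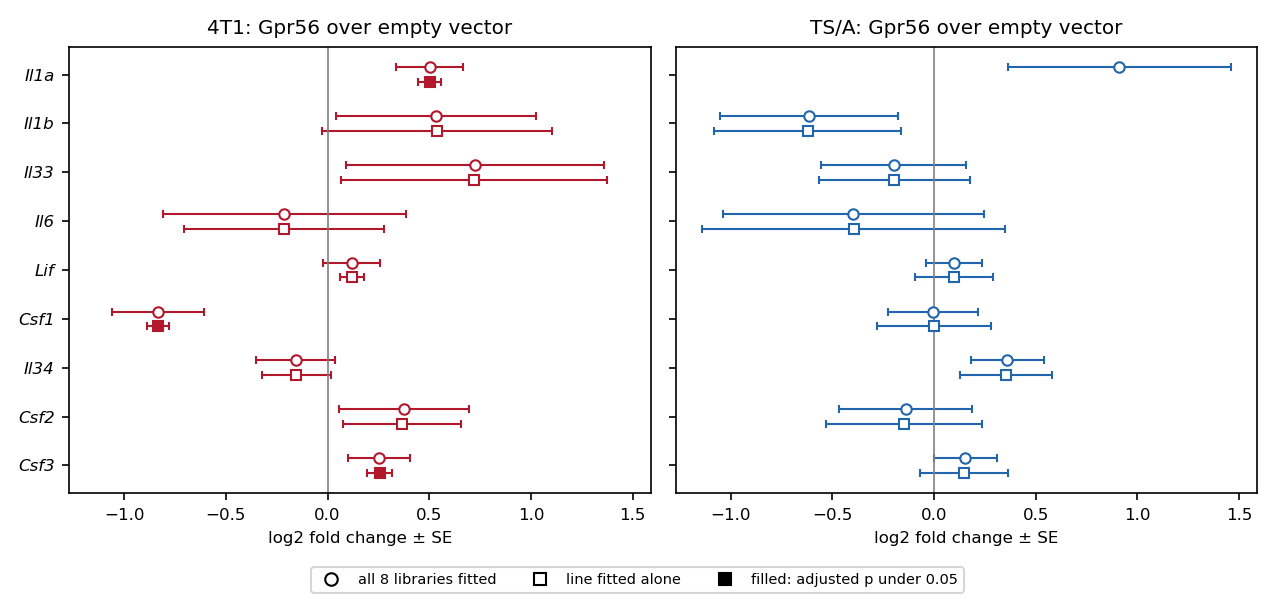
Log2 fold change of the Gpr56 over the empty vector with its standard error in 4T1 (left) and TS/A (right), from the fit of all 8 libraries (circles) and of the line alone (squares). Filled symbols passed the adjusted p of 0.05: Il1a at 0.50, Csf1 at -0.83 and Csf3 at 0.26 in 4T1 fitted alone, and none in TS/A, where Il1a was too low to be fitted alone.

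The largest difference among these genes lay between the lines. With the empty vector TS/A differed from 4T1 in 4 of the 9 tested genes, Il33 and Il34 higher and Il1a and Csf3 lower, against 47.4% of all genes called (23.9% higher and 23.5% lower). Over both vectors it differed in 5 of the 9, Csf2 added as lower, against 65.1% of all genes (32.8% higher and 32.4% lower), so the share of cytokine genes called was close to that of the transcriptome. All 4 TS/A libraries lay beyond all 4 of 4T1 in 5 of the 9 genes (58.9% of all tested genes, 28.9% higher and 30% lower), with Il33 and Il34 higher and Il1a, Il6 and Csf3 lower. For Il6 that order rests on 4 to 19 reads per library. Leaving out TS/A empty library 1 added Csf1 (-0.52, adjusted p = 0.00192) and Lif (-0.34, adjusted p = 0.0174) as lower in the empty-vector comparison, in a fit that called 64.1% of all genes, and without TS/A empty library 2 Csf1 was at 0.22 there (adjusted p = 0.104).

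Il1a was almost confined to 4T1. TS/A held 11, 6, 7 and 1 Il1a reads in its 4 libraries, against 6379, 3053, 3545 and 4550 reads in 4T1, in the order Gpr56 1 and 2, empty 1 and 2. From the pooled reads of the empty-vector libraries, 8 in TS/A and 8095 in 4T1, the level in 4T1 was 1113 times that in TS/A (95% counting interval 565 to 2579, exact binomial). With the Gpr56 vector, 17 reads in TS/A against 9432 in 4T1 made it 830.1 times (518 to 1426). The fitted log2 difference with the empty vector was -10.08 (SE 0.30, adjusted p = 3.81e-07), and it ran from -11.74 without TS/A empty library 1 to -9.47 without TS/A empty library 2.

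Il33 showed the opposite order at a lower level. TS/A held 195 and 105 reads with the Gpr56 label and 222 and 92 with the empty vector, against 13 and 6 reads in 4T1 Gpr56 and 4 and 10 in 4T1 empty. With the empty vector the log2 difference was 4.29 (SE 0.49, adjusted p = 0.000249), and it remained past the threshold without TS/A empty library 1 (3.77) or 2 (4.65). Il34 was higher in TS/A by 0.97 on the log2 scale with the empty vector (SE 0.19, adjusted p = 0.00362) and by 1.23 over both vectors (SE 0.13, adjusted p = 9.09e-05). Csf3 was lower in TS/A, by -0.95 with the empty vector (SE 0.16, adjusted p = 0.0017) and by -0.996 over both (SE 0.11, adjusted p = 0.000101). Csf2 was lower over both vectors (-0.66, SE 0.23, adjusted p = 0.0338), a call that was lost when any library other than 4T1 Gpr56 1 or TS/A empty 2 was left out. Lif (-0.18, SE 0.14) and Csf1 (-0.09, SE 0.22) had adjusted p-values of 0.306 and 0.747 with the empty vector.

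Epithelial markers also differed between the lines. Of the 6 epithelial markers, Epcam, Cdh1, Krt7 and Krt8 had at most 14 reads in any TS/A library, and Krt18 and Krt19 were present, so most defining markers of an epithelial line were absent from TS/A. The 6 markers summed to 206 and 257 CPM of library totals in TS/A Gpr56 and 190.2 and 201 CPM in TS/A empty, against 2993 and 2908 CPM in 4T1 Gpr56 and 2123 and 2091 CPM in 4T1 empty. All 6 were called higher with the Gpr56 vector in 4T1 fitted alone, as were 11.5% of all genes. In the fit of all 8 libraries 0 of the 6 were called. Of 9 fibroblast markers, 3 were at 0 throughout, and the sum was 218 and 158 CPM in TS/A Gpr56 and 354 and 141 CPM in TS/A empty, mostly Col1a1, against 8.64 and 9.51 CPM in 4T1 Gpr56 and 15.4 and 15.2 CPM in 4T1 empty. Col1a2, Col3a1 and Dcn had at most 6 reads in any TS/A library. Of the 3 fibroblast markers tested over both vectors, Col1a1 and Pdgfrb were called higher in TS/A. Pdgfra was not called (0.15 on the log2 scale, SE 0.18, edgeR's adjusted p = 0.491). Of 15 immune markers 5 were at 0 in every library, Adgre1 and Tyrobp among them, and Ptprc had at most 3 reads in any library. The immune sum was mainly Cd68 and Cd14 in 4T1 and Cd14 and Mrc1, the mannose receptor of macrophages, in TS/A. It was 28.5 and 31.7 CPM in 4T1 Gpr56 against 17.0 and 16.3 CPM in 4T1 empty, and 18.1 and 20.6 CPM in TS/A Gpr56 against 13.6 and 19.0 CPM in TS/A empty. Mrc1 was higher in TS/A over both vectors (1.93 on the log2 scale, SE 0.19, edgeR's adjusted p = 5.52e-05). Cd68 (-2.05, SE 0.15, edgeR's adjusted p = 1.11e-05) and S100a8 (-2.27, SE 0.41, adjusted p = 0.00149) were lower. That made 1 higher and 2 lower of the 4 immune markers tested, against 32.8% and 32.4% of all genes. Of the 6 endothelial markers 1 was at 0 throughout, and their sum was below 1 CPM in every library. The part of these markers in the cytokine differences was not tested.

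Reads of Csf1 were divided among transcripts in unlike shares in the lines. Csf1-201 (ENSMUST00000014743, 4176 bases) and Csf1-203 (ENSMUST00000120243, 2097 bases) both encode 552 codons, and Csf1-203 ends earlier, at position 107745595 of chromosome 3 rather than 107741048. The authors' tables gave Csf1-203 15.52% and 19.75% of Csf1 reads in TS/A Gpr56 and 13.04% and 19.58% in TS/A empty, against 2.14% and 6.05% in 4T1 Gpr56 and 3.09% and 4.10% in 4T1 empty. All 4 TS/A libraries were above all 4 of 4T1. Csf1-202, which encodes a shorter form of 257 codons, took 11.28% to 21.55% of Csf1 reads over the 8 libraries, with 4T1 Gpr56 at 17.70% and 21.55% and 4T1 empty at 13.94% and 16.79%. On the RPKM scale the mean share of Csf1-203 was 28.0% in TS/A Gpr56 and 26.1% in TS/A empty, against 6.84% in 4T1 Gpr56 and 6.29% in 4T1 empty. No source used here says how reads shared by transcripts were assigned.

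Il33 shows how far that assignment can be trusted. Il33-201, from the downstream start at 29945790 of chromosome 19, took 97.44% and 96.19% of Il33 reads in TS/A Gpr56 and 98.65% in TS/A empty library 1, but 0% in TS/A empty library 2. There, all 92 reads were given to Il33-202, from the upstream start at 29925114. In 4T1 the few Il33 reads were divided in the same uneven way, with Il33-202 at 8 of 13 and 6 of 6 reads in 4T1 Gpr56, against 4 of 4 and 0 of 10 in 4T1 empty. Both transcripts encode 266 codons. A change of start between replicates of 1 group cannot be told apart from the way reads were assigned, and the gene totals used in the tests do not depend on it. For Lif, Lif-202 (203 codons) took 54.48% and 46.81% of reads in 4T1 Gpr56, against 45.63% and 41.97% in 4T1 empty, and Lif-201 (158 codons) the rest. It took 53.56% and 40.52% in TS/A Gpr56, against 49.58% and 58.94% in TS/A empty, so the vector groups overlapped in TS/A and not in 4T1.

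**Figure D4:**
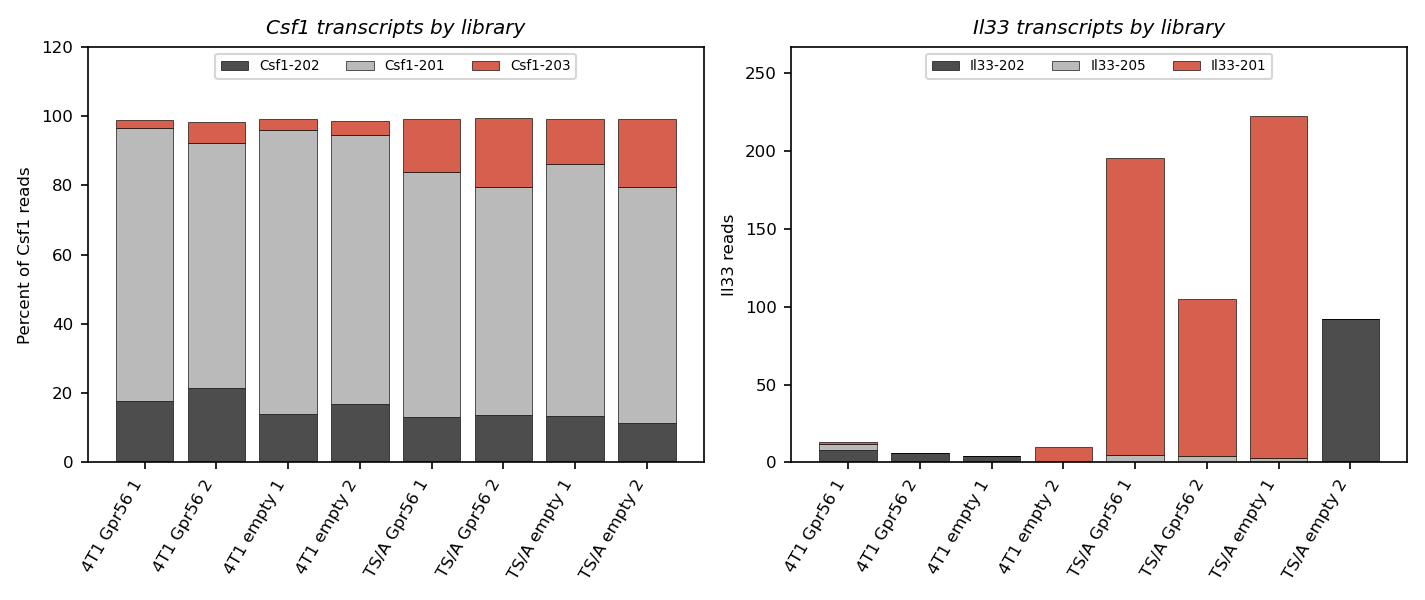
Left, percent of Csf1 reads given to each transcript with a share above 3% in some library, and right, Il33 reads per transcript with more than 3 reads in some library, both stacked by library. Csf1-203 is above 13% in each TS/A library and below 6.1% in each 4T1 library, and TS/A empty library 2 has all 92 of its Il33 reads on Il33-202, which holds none in the other TS/A libraries.

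Profiles over the 8 libraries were compared for the 5 members with a mean of at least 10 CPM, as Pearson's r of log2 CPM. Of the 11970 tested genes, only those named in letters, digits and hyphens with a capital letter first were ranked. Such an r describes 8 libraries that share lines and depth. Il1a was most like Cdh1, with Eng and Basp1, each at r = 0.9988. Il1a and Cdh1 had at most 11 and 5 reads in any TS/A library, so r for this pair mostly restates the gap between the lines. Csf1 was most like Ltbp1 (r = 0.9879), Fblim1 (0.964) and the intermediate filament gene Vim (0.9602). Csf3 was most like Tom1l1 (0.9926), Tmem40 and Frmd4b, Il34 like Wdfy1 (0.9965), Sgtb and Mccc1, and Lif like Gk5 (0.9868), Ncstn and Nr1h2. Every TS/A library lay above every 4T1 library for Il34 and below every one for Csf3. The r values of these 2 members therefore also follow the gap between the lines.

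The wider pathway was followed in 12 lists holding 137 genes. In the vector effects with all 8 libraries, and in the interaction, 0 of 105 tested genes passed edgeR's test, and 0 of 99 passed in TS/A alone. At an unadjusted p under 0.05 there were 23 in 4T1, 2 in TS/A and 15 in the interaction with all 8 libraries, where 11.4%, 3.48% and 6.4% of all genes had one, and 0 in TS/A alone (1.02% of all genes). In 4T1 fitted alone 24 of 103 were higher and 13 lower with the Gpr56 vector, 35.9% against 22.8% of all genes. The shares of all genes in that fit, 11.5% higher and 11.3% lower, are the background for each list below. All values in the next paragraphs are log2 fold changes of 4T1 Gpr56 over 4T1 empty in that fit, with edgeR's adjusted p, and none of them passed with all 8 libraries.

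Among other growth and inflammatory cytokines, 2 of 7 tested rose and 2 fell. Il24, an interleukin-10 relative, was at 109 and 116 CPM in 4T1 Gpr56, against 64.5 and 64.0 CPM in 4T1 empty (0.80, SE 0.06, adjusted p = 5.08e-07). Il23a, the p19 subunit of interleukin-23, was at 37.5 and 42.5 CPM in 4T1 Gpr56, against 24.9 and 23.8 CPM in 4T1 empty (0.71, adjusted p = 0.000105). The larger of the 2 decreases that passed was in Il7, a lymphocyte growth factor, at 3.51 and 2.91 CPM in 4T1 Gpr56, against 6.53 and 7.38 CPM in 4T1 empty (-1.09, adjusted p = 0.00206). No relative of the interleukin-1 (0 of 2) or interleukin-6 family (0 of 5) passed. The most abundant was Clcf1, another gp130-family ligand, at 33.9 and 34.2 CPM in 4T1 Gpr56 and 32.6 and 34.8 CPM in 4T1 empty.

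The receptors were unevenly present. Of the colony-stimulating and interleukin-34 receptors, Csf2ra, Csf2rb and Csf3r had 0 reads in all 8 libraries and Csf1r at most 5, genes named after their values were seen. Sdc1, a syndecan to which interleukin-34 can bind, was the tested one and rose by 0.18 (adjusted p = 0.0475). Among interleukin-6 and LIF receptors Cntfr, the CNTF receptor, rose by 0.96 (adjusted p = 0.00379). Il6st, which encodes gp130, was lower, at 123 and 120.01 CPM in 4T1 Gpr56 against 157 and 156 CPM in 4T1 empty (-0.36, adjusted p = 0.000323). None of 3 tested interleukin-1 and interleukin-33 receptors passed. Their most abundant, Sigirr, an inhibitory receptor of that family, was at 51.1 and 48.9 CPM in 4T1 Gpr56 and 47.4 and 47.9 CPM in 4T1 empty.

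Of the genes of interleukin-1 processing, 3 of 8 rose and none fell: Capn2 (0.30, adjusted p = 0.00101) and Capn1 (0.29, adjusted p = 0.00252), calpains, a class of protease that cleaves the interleukin-1 alpha precursor, and Casp8 (0.25, adjusted p = 0.01). Of 17 genes from the interleukin-1 receptor to NF-κB, 2 rose and 3 fell, with Irak2, a receptor-associated kinase relative, at 0.62 (adjusted p = 0.023) and Tab1, an adaptor of the kinase TAK1, at -0.36 (adjusted p = 0.0374). NF-κB feedback and target genes moved both ways, 6 of 17 higher and 4 lower. Icam1, an adhesion molecule, was at 4.54 and 4.50 CPM in 4T1 Gpr56, against 10.3 and 11.7 CPM in 4T1 empty (-1.28, adjusted p = 0.000107). The chemokine Ccl20 rose by 1.06 (adjusted p = 0.000266), and Lcn2, the siderophore-binding lipocalin, by 0.77 (adjusted p = 0.00131).

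JAK-STAT genes had 2 of 15 higher and 1 lower, where 11.5% of all genes were higher and 11.3% lower. Socs1, a feedback inhibitor, was at 7.68 and 7.50 CPM in 4T1 Gpr56, against 3.71 and 3.38 CPM in 4T1 empty (1.10, adjusted p = 0.00125), and Stat3 rose by 0.31 (adjusted p = 0.00258). Of the transcription factors known to act on cytokine promoters, 5 of 14 rose and 1 fell. Cebpd was at 7.77 and 7.03 CPM in 4T1 Gpr56, against 3.54 and 2.77 CPM in 4T1 empty (1.24, adjusted p = 0.000843), and its relative Cebpb rose by 0.74 (adjusted p = 0.000874). The AP-1 subunit Jund rose by 0.91 (adjusted p = 0.000117). Of 9 regulators of cytokine mRNA decay, 2 rose and 1 fell, with Zfp36 (tristetraprolin), which destabilises AU-rich cytokine mRNAs, at 0.54 (adjusted p = 0.000349) and its relative Zfp36l1 at -0.30 (adjusted p = 0.0182).

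**Figure D5:**
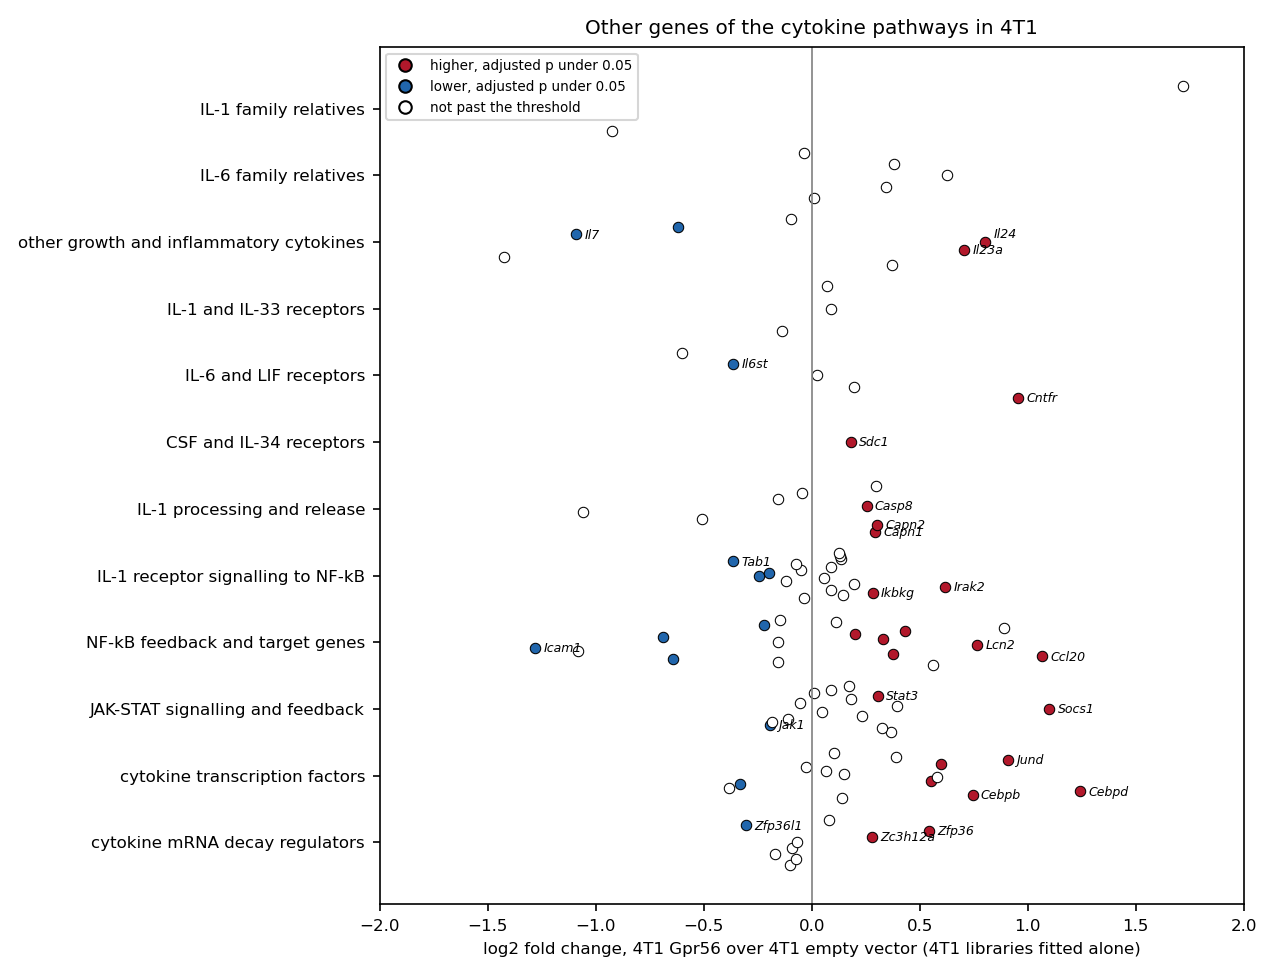
Log2 fold change of each tested gene of the 12 pathway lists, 4T1 Gpr56 over 4T1 empty, with 4T1 fitted alone. Red points are higher and blue points lower past an adjusted p of 0.05 (24 and 13 of 103), the vertical offset within a list only separates points, and up to 3 genes per list are labelled.

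Between the lines, TS/A differed from 4T1 over both vectors in 80 of 105 tested pathway genes, 76.2% against 65.1% of all genes. Of the 105, 27 were higher and 53 lower, where 32.8% of all genes were higher and 32.4% lower. Of the 7 other growth and inflammatory cytokines tested, 5 were lower in TS/A and 0 higher. The interleukin-1 receptor to NF-κB genes were lower in 11 of 17 and higher in 1, the NF-κB feedback and target genes lower in 9 of 17 and higher in 3, the transcription factors lower in 7 of 14 and higher in 3, and the mRNA decay regulators lower in 7 of 9 and higher in 0. More genes were higher than lower in interleukin-1 processing, 6 against 3 of 9, in JAK-STAT signalling, 7 against 5 of 15, and among the interleukin-6 relatives, 3 against 1 of 5. The interleukin-1 and interleukin-33 receptors had 2 higher and 1 lower of 4, the interleukin-6 and LIF receptors 1 higher and 2 lower of 5, the interleukin-1 relatives 1 each way of 2, and Sdc1 was lower.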

How the data were processed

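Per the labels' protocols, the RNeasy Mini Kit gave total RNA and the TruSeq RNA Library Preparation Kit v2 the libraries, in which strand is not marked. Per the file headers, the authors deposited for 65042 transcripts a whole-number read count and an RPKM value. Aligner, counting method and build are named in no source used here. Between libraries, the ratio of reads to deposited RPKM changed by the same multiple for all transcripts checked (relative tolerance 0.001). Whether that ratio equals transcript length times library size was not tested. Transcript IDs were matched to GENCODE M21 (GRCm38), which held 65023 of them.

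Deposited counts were summed per gene name and tested with edgeR 4.0.16 in R 4.3.3: filterByExpr (11970 genes with all 8 libraries, 11361 with 4T1 alone), TMM scaling, glmQLFit and glmQLFTest with 1 mean per group, Benjamini-Hochberg adjustment and a threshold of 0.05. Standard errors are the log2 fold change over the root of F. RPKM gave levels of genes and shares of transcripts and entered no test. The pipeline was checked on simulated counts that gave each gene the same spread in both lines. That check therefore does not cover the unequal spread of the 4T1 and TS/A libraries.

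Alternatives used DESeq2 1.42.0, limma-voom (limma 3.58.1), other scalings and filters, a replicate block, 1 line alone and fewer libraries. Replicate numbers were not taken to pair libraries.

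The members and all lists were chosen with earlier results of these data known. Named besides the members were at most 3 called genes per list, by size of change, or else the most abundant. Of the listed genes, 4 matched by an older symbol.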

Additional observations from a re-analysis of the deposited data

Results flagged for a closer look

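The groups of Il1b and Il34 lay apart in opposite directions in the 2 lines. For Il1b, both Gpr56 libraries were below both empty libraries in TS/A and above them in 4T1, with a difference of -1.15 on the log2 scale (TS/A minus 4T1, SE 0.66, adjusted p = 0.836 by edgeR's interaction test), from 7 to 22 reads per library. For Il34, both Gpr56 libraries were above both empty libraries in TS/A and below them in 4T1, with a difference of 0.52 (SE 0.27, adjusted p = 0.802). Neither difference passed the test.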

How the results depend on the processing

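The count of cytokine genes called for the vector in 4T1, 0 by the reported fit, was 2 (Csf1 and Il1a) by DESeq2's Wald test, 1 (Csf1) with no filter on low counts, 3 with 4T1 alone and 3 with 4T1 alone and a replicate block (of all genes 27 by the reported fit, then 271, 266, 2588 and 2824). Leaving out 1 of the 8 libraries gave 0 to 2 (0 to 1285 of all genes), the 2 without TS/A empty library 1 or 2, and in 4T1 alone 2 to 3 (1403 to 2748 of all genes). The interaction, at 0, gave 0 to 1 on leaving out a library (0 to 2391 of all genes). The TS/A count was 0 in all 21 alternatives run (up to 2933 of all genes, without TS/A empty library 2). The line count over both vectors, at 5, was 3 under a filter of 10 CPM in 2 libraries, which leaves 5 of the genes, and 4 to 6 on leaving out a library (6601 to 9327 of all genes). With the empty vector, at 4, it was 3 under that filter and 4 to 6 on leaving out a library (3335 to 7853 of all genes). A replicate block in the fit of all 8 gave 0, 0, 0, 4 and 5 for the vector in 4T1, the vector in TS/A, the interaction, the line with the empty vector and the line over both. Same-numbered libraries correlated at 0.004 in 4T1 and 0.463 in TS/A after group means were removed.

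Of 626 values of single genes under alternatives, 565 kept direction and side of the threshold, 28 passed where the reported one did not, and 33 turned sign, none of them past the threshold. The TS/A vector effect of Csf1, -0.01, was 0.0379 by limma-voom, 0.0005258 with no filter, 0.0128 with a replicate block and 0.0307 in TS/A alone with one. On leaving out 1 library, values that turned ran, for the TS/A vector effect, as Il33 -0.559 to 0.316, Il6 -1.71 to 0.349, Lif -0.0341 to 0.254, Csf1 -0.326 to 0.42, Csf2 -0.409 to 0.18 and Csf3 -0.0249 to 0.346, for the interaction as Il1a -0.198 to 2.08, Il6 -1.49 to 0.552, Lif -0.153 to 0.135 and Csf3 -0.273 to 0.0728, and for the line with the empty vector as Csf1 -0.516 to 0.225. The causes were not tested. At 0 to 22 reads per library, Il1b, Il1rn, Il6 and, by line, Il1a and Il33 are limited by depth.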
